A study of Mus musculus with 15 samples.

Results

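The inducible nitric oxide synthase, the cyclooxygenases, the prostaglandin synthases and the prostaglandin E2 receptors of primary mouse chondrocytes are described here. These 10 genes were listed by name, with earlier results of these data known. *Nos2* makes nitric oxide, *Ptgs1* and *Ptgs2* are the cyclooxygenases, *Ptges*, *Ptges2* and *Ptges3* make prostaglandin E2, *Ptgds* makes prostaglandin D2, *Ptgis* makes prostacyclin, and *Ptger2* and *Ptger4* are the EP2 and EP4 receptors. All 10 were found by symbol among the 24134 genes of each count table. Articular chondrocytes were isolated from ICR mice in the first week of life and used at passage 0. In the drug set, cells received DMSO, 10 µM XAV939 or 10 µM IWR-1 for 108 h. Both compounds inhibit the tankyrases TNKS and TNKS2, enzymes that attach poly(ADP-ribose) chains to other proteins. In the siRNA set, cells were transfected with a control siRNA (siCtrl) or with siRNAs against *Tnks* and *Tnks2* together (siTnks/2), each target by a single siRNA, and the time after transfection is not given in the sources used here. No genotype was altered, no inflammatory cytokine is named for any of the 5 groups, and each group holds 3 libraries of poly(A) RNA, described by the study as biological replicates.

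In joint tissue, nitric oxide and prostaglandin E2 are made by chondrocytes and synovial cells exposed to interleukin-1 or tumour necrosis factor. The prostaglandin pathway runs in steps. Phospholipases free arachidonic acid from membranes, a cyclooxygenase converts it to prostaglandin H2, and a terminal synthase turns that into E2, D2 or prostacyclin. *Ptgs2* and *Ptges* are the members usually induced by cytokines, while *Ptgs1*, *Ptges2* and *Ptges3* are usually described as constitutive. EP2 and EP4 are G protein-coupled receptors that raise cyclic AMP when prostaglandin E2 binds. Nitric oxide is made from arginine and acts partly through soluble guanylate cyclase and cyclic GMP.

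Total counts lay between 26857070 and 36615194 per library. *Tnks* was at 58.4 to 70.1 CPM (gene counts scaled to library size) in siCtrl and at 12.7 to 24.0 CPM in siTnks/2, and *Tnks2* at 115 to 120 and at 44.9 to 61.2 CPM. All 10 chondrocyte markers were present in every group, with a summed level of 27519 to 37172 CPM in DMSO and 87528 to 116965 CPM in siCtrl. Values in CPM were scaled within each set, so levels set side by side across the sets rest on separate scalings. Only the direct contrast of DMSO with siCtrl was fitted over all 15 libraries together. Gene positions below are whole gene spans on build GRCm38, with the Entrez identifier of the files.

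*Nos2* (Entrez 18126, chr11:78920787-78960226, plus strand), which encodes the inducible nitric oxide synthase, was the most abundant of the 10 genes in DMSO and was almost absent from the siRNA set. Its level was 1608, 1213 and 1432 CPM in DMSO replicates 1, 2 and 3. With XAV939 it was 423, 407 and 519 CPM, and with IWR-1 it was 59.8, 54.1 and 81.9 CPM. The 3 groups did not overlap, and IWR-1 lay lowest. *Nos2* fell by 1.66 ± 0.18 on the log2 scale with XAV939 (SE, n = 3 per group, edgeR quasi-likelihood test, adjusted p = 0.000222), a 3.15-fold decrease. It fell by 4.44 ± 0.20 with IWR-1 (adjusted p = 6.89e-07), a 21.7-fold decrease, and the direct comparison of IWR-1 with XAV939 gave -2.78 ± 0.19 (adjusted p = 3.26e-05). These reads took 0.115 to 0.156% of all counts in the DMSO libraries and 0.00536 to 0.00832% in the IWR-1 libraries.

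In the siRNA set *Nos2* had 0, 1 and 0 counts in siCtrl and 4, 2 and 1 counts in siTnks/2. It did not pass the filter on low counts there, so the effect of knockdown on *Nos2* was not tested. Relative to all gene counts, *Nos2* was 123166 times as frequent in DMSO (139989 counts) as in siCtrl (1 count), with an exact 95% interval from 22106 to 4864839. Intervals of this kind cover counting error only. DMSO and siCtrl differ in treatment and count table at once, and the time of the siRNA set is not given, so these cannot be told apart. The 12 leukocyte and macrophage markers summed to 36.2 to 46.3 CPM in DMSO, 34.9 to 41.4 CPM with XAV939, 24.2 to 27.3 CPM with IWR-1 and 20.5 to 23.0 CPM in siCtrl. In DMSO 7 of the 12 were below 1 CPM and 2 (*C1qa*, *C1qb*) at 0 counts. Of the 6 tested against siCtrl 4 were higher and 1 lower, against 23.0% and 25.0% of all genes. Among these 6, *Csf1r* and *Adgre1* did not pass the filter through siCtrl, so their place in the count is no support. The part of the leukocyte and macrophage markers in the *Nos2* level was not tested.

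**Figure D1:**
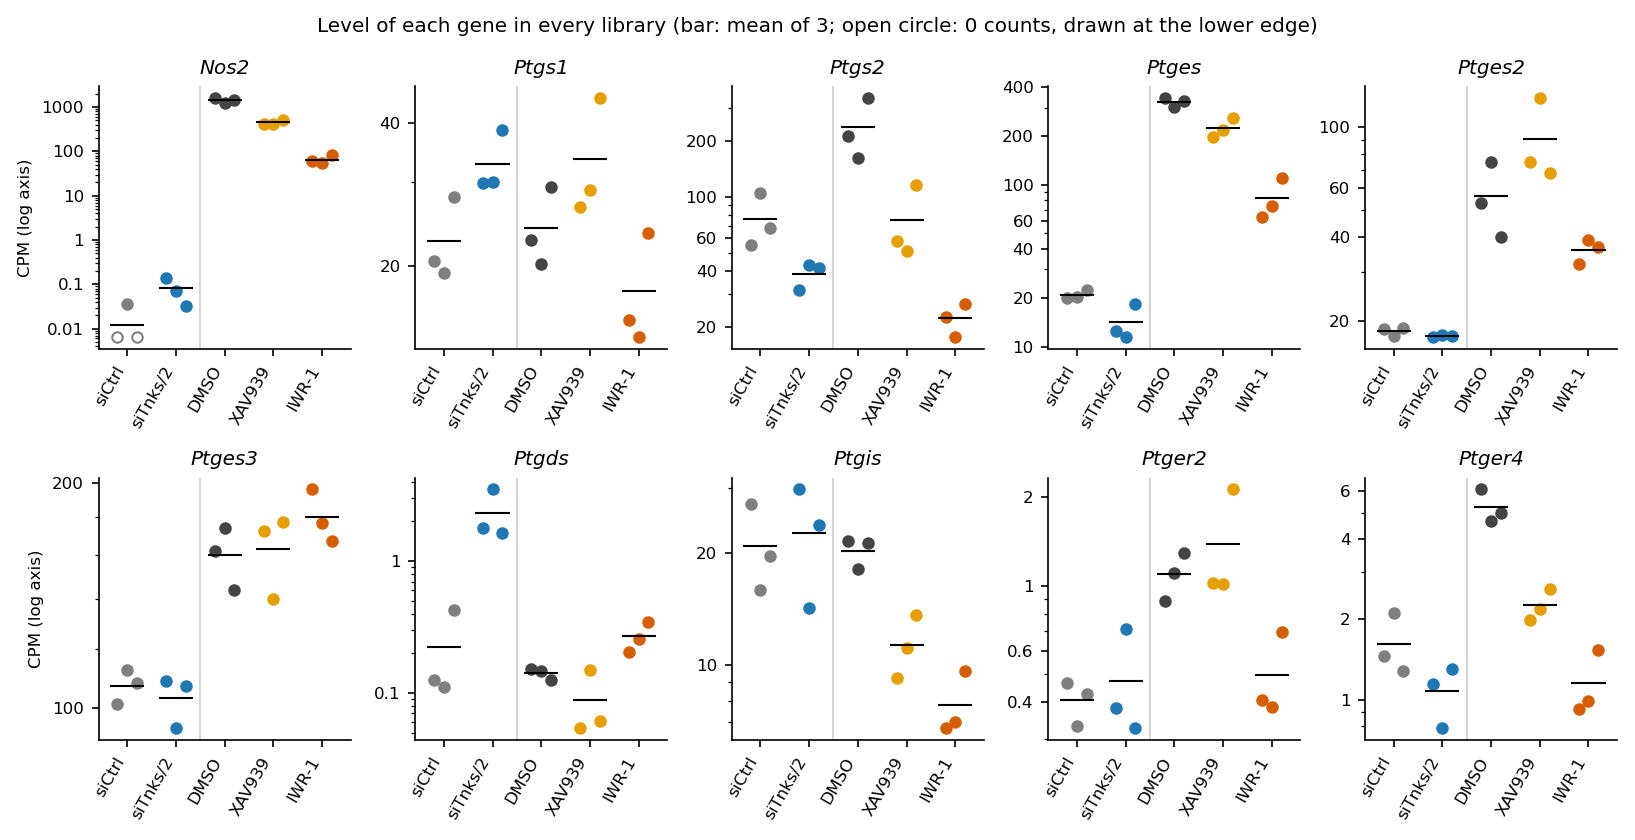
Level of each of the 10 genes in CPM (vertical log axis, its range set gene by gene) in all 15 libraries, with 1 point per library in the order of replicate number, a bar for the mean of 3 libraries and the siRNA set left of the grey line. *Nos2* lies at 1213 to 1608 CPM in DMSO and at 0 to 0.139 CPM in the siRNA set, and *Ptgs2*, *Ptges*, *Ptgis* and *Ptger4* step down from DMSO to IWR-1.

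The cyclooxygenases behaved differently from each other. *Ptgs2*, the inducible cyclooxygenase, was lower under all 3 treatments, and *Ptgs1*, the constitutive one, was not. *Ptgs2* (Entrez 19225, chr1:150100031-150108234, plus strand) was at 211, 162 and 340 CPM in DMSO, at 57.6, 51.2 and 116 CPM with XAV939, and at 22.7, 17.7 and 26.6 CPM with IWR-1. Again the 3 groups did not overlap. It was at 54.9, 104 and 68.1 CPM in siCtrl and at 31.4, 43.1 and 41.7 CPM in siTnks/2, so that every knockdown library lay below every control. *Ptgs2* fell by 1.67 ± 0.34 with XAV939 (adjusted p = 0.00695), by 3.41 ± 0.36 with IWR-1 (adjusted p = 4.52e-05) and by 0.97 ± 0.24 with knockdown (adjusted p = 0.0374), all on the log2 scale. The knockdown call was lost when siCtrl replicate 2 (adjusted p = 0.0670), siCtrl replicate 3 (0.0844), siTnks/2 replicate 1 (0.113) or siTnks/2 replicate 3 (0.0647) was left out. IWR-1 left *Ptgs2* lower than XAV939 did, by 1.74 ± 0.34 on the log2 scale (adjusted p = 0.00581).

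*Ptgs1* (Entrez 19224, chr2:36216742-36258593, plus strand) measured 22.7, 20.3 and 29.3 CPM in DMSO libraries, 26.7, 28.9 and 45.2 CPM in XAV939 libraries and 15.5, 14.2 and 23.5 CPM in IWR-1 libraries. In siCtrl it was at 20.6, 19.4 and 28.0 CPM and in siTnks/2 at 29.9, 30.1 and 38.7 CPM. Each inhibitor group overlapped DMSO, whereas all siTnks/2 libraries lay above siCtrl. The log2 difference was +0.54 ± 0.17 with knockdown (adjusted p = 0.0658), +0.48 ± 0.24 with XAV939 (adjusted p = 0.198) and -0.44 ± 0.24 with IWR-1 (adjusted p = 0.185), and none passed the test. With the replicate number as a block, all 3 passed, at +0.54 (adjusted p = 0.00387), +0.45 (adjusted p = 0.00484) and -0.46 (adjusted p = 0.00262). Without the block, the knockdown difference passed when siCtrl replicate 3 was left out (adjusted p = 0.0464), and the IWR-1 difference when IWR-1 replicate 3 was left out (adjusted p = 0.0459). *Ptgs1* was lower with IWR-1 than with XAV939, by 0.92 ± 0.24 on the log2 scale (adjusted p = 0.0249). That call was lost without IWR-1 replicate 1 (adjusted p = 0.101), IWR-1 replicate 2 (0.109) or XAV939 replicate 3 (0.0891).

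Put together as reads per kilobase of exon, *Ptgs2* made up 88.9 ± 1.8% (SD, n = 3) of the cyclooxygenase signal in DMSO, 64.4 ± 4.2% with XAV939 and 51.9 ± 3.3% with IWR-1. The share was 72.9 ± 8.0% in siCtrl and 49.9 ± 4.3% in siTnks/2. No library of a treated group overlapped its control, and the exact two-sided permutation test gave p = 0.1 in each comparison with the control and between the inhibitors, the smallest p that 3 against 3 libraries allow.

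The stretches of 250 bases before the RefSeq start are shown for these cyclooxygenase genes and for *Ptges* and *Ptger4*. Of these, *Ptgs2*, *Ptges* and *Ptger4* all fell with IWR-1. *Ptger2* was also called lower with IWR-1, and its window is not printed here. Bases are written 5′ to 3′ on the strand of the gene. Capitals mark matches on either strand to GGG and CC with 5 bases between them (NF-kB) or to TTNNGNAA (C/EBP). A match is a description of the letters and not a site. RefSeq sequences of build GRCm38.p6 were used, chr2:36230176-36230425 (plus strand) for *Ptgs1*, chr1:150099781-150100030 (plus) for *Ptgs2*, chr2:30903298-30903547 (minus) for *Ptges* and chr15:5244188-5244437 (minus) for *Ptger4*.
Ptgs1: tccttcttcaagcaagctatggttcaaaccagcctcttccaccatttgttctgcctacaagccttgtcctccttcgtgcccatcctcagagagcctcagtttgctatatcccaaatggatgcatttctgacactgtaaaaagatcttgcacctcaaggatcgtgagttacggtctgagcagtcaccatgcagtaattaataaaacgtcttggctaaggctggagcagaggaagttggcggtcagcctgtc
Ptgs2: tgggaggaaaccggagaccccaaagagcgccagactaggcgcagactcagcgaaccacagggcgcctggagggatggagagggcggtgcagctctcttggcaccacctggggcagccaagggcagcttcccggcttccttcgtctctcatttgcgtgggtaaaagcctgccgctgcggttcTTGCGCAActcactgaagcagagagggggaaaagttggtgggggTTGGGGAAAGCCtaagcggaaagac
Ptges: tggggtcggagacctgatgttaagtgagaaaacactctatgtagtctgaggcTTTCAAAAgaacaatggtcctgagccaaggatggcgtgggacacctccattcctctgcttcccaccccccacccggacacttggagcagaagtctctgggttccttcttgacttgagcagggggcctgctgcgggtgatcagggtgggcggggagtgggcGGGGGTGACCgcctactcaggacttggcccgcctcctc
Ptger4: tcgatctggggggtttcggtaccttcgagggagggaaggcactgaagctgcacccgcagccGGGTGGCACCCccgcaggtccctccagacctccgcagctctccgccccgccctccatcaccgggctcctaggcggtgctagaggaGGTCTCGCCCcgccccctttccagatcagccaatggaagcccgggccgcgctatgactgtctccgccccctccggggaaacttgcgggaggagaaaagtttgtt

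The *Ptgs2* window held an NF-kB match that starts 23 bases before the start site, and 2 C/EBP matches that start at 69 and 25 bases. The match at 25 bases overlaps the NF-kB match. The *Ptges* window held 1 match of each kind, the *Ptger4* window 3 NF-kB matches of which 2 overlap, and the *Ptgs1* window none. Of all 32851 windows of this length, 45.8% held the NF-kB pattern and 36.8% the C/EBP pattern, so both are common letters. Among the 8 members with a window, 5 held the first and 5 the second. The NF-kB pattern was also in *Ptges3* (3 matches), not called with any treatment, and in *Ptgds* (1 match). It was absent from *Ptges2* and from *Ptger2*, which was called lower with IWR-1. The C/EBP pattern was also in *Ptges2*, *Ptgds* and *Ptger2*. AP-1 (TGANTCA, in 6.75% of all windows) was found in *Ptgds* alone and the E-box (CACGTG, 6.02%) in *Ptges2* alone. The core of a CRE (TGACG, 17.8%), GAS (TTCNNNGAA, 7.02%), TATA box (TATAAA, 12.4%) and TCF/LEF pattern (CTTTGAT, 3.21%) were in none of the 8. Only the 250 bases before the RefSeq start were searched, so an absence here does not cover bases outside them. *Nos2* and *Ptgis* were not among the windows. The *Ptges* and *Ptgs1* windows lie inside the gene spans, downstream of another annotated start, and the *Ptgs2* window overlaps exons of the antisense noncoding gene *Ptgs2os*. The *Ptgds* window, not printed here, also lies inside its gene span.

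Among the prostaglandin E synthases, *Ptges* was called lower with IWR-1, while *Ptges2* was called lower only in some alternative fits. *Ptges*, the inducible microsomal enzyme that works with *Ptgs2* (Entrez 64292, chr2:30889471-30931020, minus strand), was at 344, 302 and 330 CPM in DMSO libraries, 196, 219 and 260 CPM in XAV939 libraries and 63.5, 73.6 and 111 CPM in IWR-1 libraries. It was at 19.9, 20.2 and 22.4 CPM in siCtrl and 12.4, 11.5 and 18.4 CPM in siTnks/2. No treated library overlapped its control. *Ptges* fell by 1.98 ± 0.19 on the log2 scale with IWR-1 (adjusted p = 2.80e-05). The log2 difference was -0.53 ± 0.19 with XAV939 (adjusted p = 0.0749) and -0.56 ± 0.18 with knockdown (adjusted p = 0.0719), neither past the test. With the replicate block they were -0.55 (adjusted p = 0.00852) and -0.58 (adjusted p = 0.0167), both past it. The XAV939 difference also passed without IWR-1 replicate 3 (adjusted p = 0.0201), which enters the estimate of spread, and the knockdown difference without siTnks/2 replicate 3 (adjusted p = 0.0113). IWR-1 left *Ptges* lower than XAV939 did, by 1.45 ± 0.19 on the log2 scale (adjusted p = 0.000738).

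*Ptges2* (Entrez 96979, chr2:32395890-32402740, plus strand), which encodes a membrane-associated prostaglandin E synthase, differed between the inhibitors more than it differed between either of them and DMSO. It was at 53.3, 74.9 and 40.2 CPM in DMSO libraries, 75.0, 127 and 68.3 CPM in XAV939 libraries and 31.9, 38.9 and 37.0 CPM in IWR-1 libraries. The XAV939 libraries overlapped DMSO and the IWR-1 libraries did not. Against DMSO the log2 differences were +0.68 ± 0.26 with XAV939 (adjusted p = 0.0909) and -0.64 ± 0.26 with IWR-1 (adjusted p = 0.0734). Both passed with the replicate block, at +0.67 (adjusted p = 0.00432) and -0.59 (adjusted p = 0.00534), and the direct difference of IWR-1 from XAV939 was -1.33 ± 0.26 (adjusted p = 0.00579). Without the block, the XAV939 difference passed when DMSO replicate 2 was left out (adjusted p = 0.0309), and the IWR-1 difference when DMSO replicate 3 (0.0231) or XAV939 replicate 2 (0.0309) was. In the siRNA set *Ptges2* stayed within 17.5 to 18.8 CPM (log2 difference -0.06 ± 0.07, adjusted p = 0.591). *Ptges3* (Entrez 56351, chr10:128058982-128077254, plus strand), the cytosolic synthase that is also the Hsp90 co-chaperone p23, lay between 140 and 196 CPM in the drug set and between 94.0 and 112 CPM in the siRNA set. Its log2 differences under treatment were +0.17 ± 0.12 with IWR-1, +0.03 ± 0.12 with XAV939 and -0.06 ± 0.08 with knockdown, with 95% intervals that stayed between -0.24 and 0.44.

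Within the E synthases, *Ptges* took 50.0 ± 4.3% of the reads per kilobase in DMSO, 38.4 ± 3.2% with XAV939 and 19.2 ± 5.6% with IWR-1. In the siRNA set it took 9.25 ± 0.56% in siCtrl and 6.66 ± 1.44% in siTnks/2, where *Ptges3* held most of the signal. The groups did not overlap in any of the 4 comparisons, with p = 0.1 in each (exact two-sided permutation test).

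**Figure D2:**
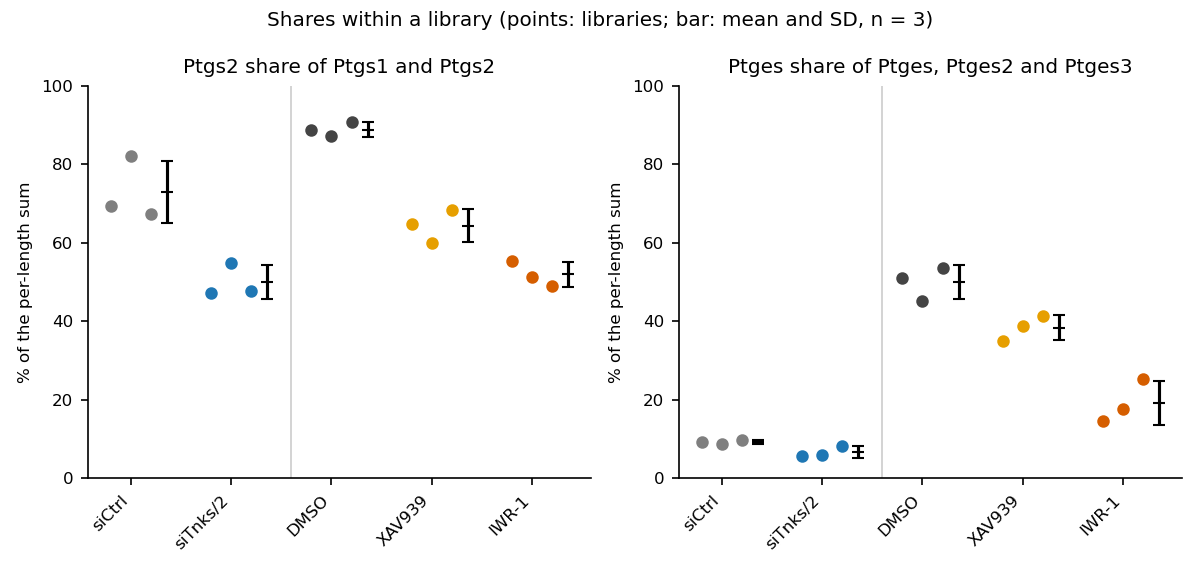
Share of *Ptgs2* in the sum of both cyclooxygenase genes (left) and of *Ptges* in the sum of the 3 prostaglandin E synthase genes (right), in percent of reads per kilobase of exon, with 1 point per library and bars for the mean and SD of 3 libraries. The *Ptgs2* share drops from 88.9% in DMSO to 51.9% with IWR-1 and from 72.9% in siCtrl to 49.9% in siTnks/2, and the *Ptges* share from 50.0% to 19.2% with IWR-1.

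The synthases of the other prostanoids gave contrasting results. *Ptgds* (Entrez 19215, chr2:25466709-25470110, minus strand), the lipocalin-type prostaglandin D synthase, was a low gene throughout, with 4, 3 and 14 counts in siCtrl and 51, 98 and 50 counts in siTnks/2. All knockdown libraries lay above the controls, at 1.77, 3.49 and 1.63 CPM against 0.124, 0.111 and 0.429 CPM. *Ptgds* passed the filter on low counts only through its level in siTnks/2, so it could enter the test only by being high there. Its fitted log2 difference of +3.01 ± 0.55 is therefore a description, and no call is drawn from it. In the drug set it had 2 to 12 counts per library and was not tested.

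*Ptgis* (Entrez 19223, chr2:167203194-167252150, minus strand), the prostacyclin synthase, was at 21.5, 18.1 and 21.3 CPM in DMSO libraries, 9.22, 11.1 and 13.6 CPM in XAV939 libraries and 6.74, 6.9972 and 9.60 CPM in IWR-1 libraries. Both inhibitor groups lay wholly below DMSO and overlapped each other. It fell by 0.84 ± 0.18 on the log2 scale with XAV939 (adjusted p = 0.00837) and by 1.38 ± 0.18 with IWR-1 (adjusted p = 0.000170). The difference between the inhibitors was -0.53 ± 0.18 (adjusted p = 0.0649), and -0.53 with the replicate block (adjusted p = 0.00927). It passed without the block when IWR-1 replicate 3 (adjusted p = 0.0303) or XAV939 replicate 1 (0.0425) was left out. *Ptgis* was at 27.2, 15.9 and 19.6 CPM in siCtrl and 29.7, 14.3 and 23.9 CPM in siTnks/2, groups that overlapped (log2 difference +0.11 ± 0.29, adjusted p = 0.818).

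Of the receptors, *Ptger4* (Entrez 19219, chr15:5233399-5244187, minus strand) was the more abundant per length and the one that fell with both inhibitors. It was at 6.10, 4.66 and 4.97 CPM in DMSO libraries, 1.99, 2.18 and 2.59 CPM in XAV939 libraries and 0.930, 0.995 and 1.54 CPM in IWR-1 libraries, with no overlap between any of the 3 groups. *Ptger4* fell by 1.20 ± 0.21 on the log2 scale with XAV939 (adjusted p = 0.00323) and by 2.12 ± 0.23 with IWR-1 (adjusted p = 3.82e-05). The inhibitors differed by 0.93 ± 0.23 (adjusted p = 0.0163), a call that was lost without IWR-1 replicate 1 (adjusted p = 0.0751), IWR-1 replicate 2 (0.0763) or XAV939 replicate 3 (0.0583). In the siRNA set *Ptger4* was at 1.46, 2.11 and 1.29 CPM with siCtrl and 1.15, 0.784 and 1.31 CPM with siTnks/2, and the groups overlapped (log2 difference -0.55 ± 0.28, adjusted p = 0.195). *Ptger4* overlaps the coding gene *Ttc33* on the opposite strand. The strand setting of the counting is not given, so reads of the pair may not be separable.

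*Ptger2* (Entrez 19217, chr14:44988111-45003820, plus strand) lay between 0.326 and 2.13 CPM in all libraries, which is 9 to 69 counts. It was at 0.884, 1.11 and 1.29 CPM in DMSO libraries, 1.02, 1.01 and 2.13 CPM in XAV939 libraries and 0.407, 0.385 and 0.696 CPM in IWR-1 libraries. Only IWR-1 lay wholly below DMSO. It fell by 1.04 ± 0.38 on the log2 scale with IWR-1 (adjusted p = 0.0362), and leaving out DMSO replicate 2, DMSO replicate 3, IWR-1 replicate 1 or IWR-1 replicate 2 ended the call (adjusted p = 0.0705, 0.0895, 0.115 and 0.122). The difference of IWR-1 from XAV939 was -1.38 ± 0.37 (adjusted p = 0.0189), lost without IWR-1 replicate 1, IWR-1 replicate 2 or XAV939 replicate 3 (adjusted p = 0.0788, 0.0824 and 0.0668). Neither XAV939 (+0.33 ± 0.34) nor knockdown (+0.17 ± 0.38) gave a difference past the test.

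**Figure D3:**
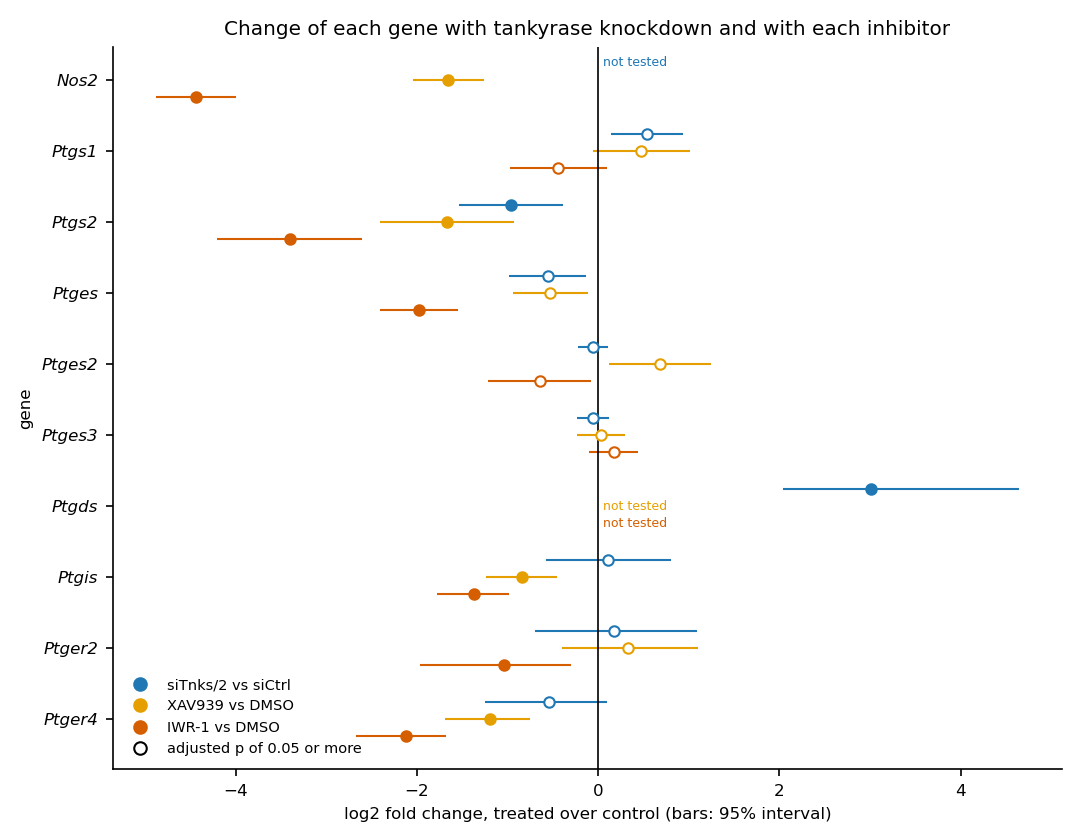
Log2 fold change of each gene (horizontal axis) with knockdown, XAV939 and IWR-1, with bars for the 95% interval and filled points for an adjusted p under 0.05. IWR-1 lies furthest to the left for *Nos2* (-4.44), *Ptgs2* (-3.41), *Ptger4* (-2.12) and *Ptges* (-1.98), and *Ptgds*, which entered the fit only through siTnks/2, lies at +3.01 with knockdown.

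Counted over the set, 9 of the 10 genes could be tested in each treatment comparison. With knockdown 1 was lower (*Ptgs2*) and 1 past the limit on the higher side (*Ptgds*, which is no support, since it entered only through siTnks/2), where 18.0% of all 13672 genes tested were called, 10.4% higher and 7.61% lower. XAV939 lowered 4 (*Nos2*, *Ptgs2*, *Ptgis*, *Ptger4*) and raised 0, against 9.85% of all 13873 genes called lower and 7.57% higher. IWR-1 lowered 6 (the same 4 with *Ptges* and *Ptger2*) and raised 0, against 20.2% called lower and 16.2% higher. Between the inhibitors 7 were lower with IWR-1 and 0 higher, against 10.2% and 7.37%. By non-overlap of all 3 libraries with the control, 2 members, *Ptgds* included, were higher and 2 lower with knockdown (21.6% and 22.2% of all genes), 5 lower with XAV939 (16.8%), 7 lower with IWR-1 (26.4%) and 7 lower with IWR-1 than with XAV939 (19.4%). The median log2 difference of the tested members was -0.06 with knockdown, -0.53 with XAV939, -1.38 with IWR-1 and -1.33 for IWR-1 against XAV939, where the median over all genes tested was at most 0.02 in size. With the replicate block the counts became 2 higher (*Ptgds* included) and 2 lower with knockdown (18.1% and 16.5% of all genes) and 2 higher and 5 lower with XAV939 (16.0% and 17.4%). With *Ptgds* included, the knockdown count was 1 without siCtrl replicate 1, siCtrl replicate 2 or siTnks/2 replicate 1, and the count between the inhibitors was 4 without IWR-1 replicate 1, IWR-1 replicate 2 or XAV939 replicate 3. The comparisons with XAV939 and with IWR-1 share the DMSO libraries, and the members are not replicates of each other.

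Markers moved in the same libraries, and the shares of all genes called, given above, stand beside their counts. With IWR-1 all 10 chondrocyte markers were higher, their sum rising from the DMSO range of 27519 to 37172 CPM to 91108 to 115781 CPM, and 6 of 10 fibroblast and synovial lining markers were lower and 1 higher, with sums of 9428 to 12386 CPM in DMSO and 3374 to 5813 CPM with IWR-1. With XAV939 3 chondrocyte markers were higher (9 with the replicate block) and 5 fibroblast markers lower and 1 higher, with sums of 37807 to 57367 and 4468 to 6629 CPM. With knockdown 3 chondrocyte markers were higher (8 with the block) and the fibroblast list had 1 higher and 0 lower (1 and 3 with the block), with sums of 124614 to 202049 and 1653 to 4570 CPM. Of the leukocyte list, 3 of 6 tested markers were lower and 1 higher with IWR-1, 1 higher with XAV939 (2 higher and 1 lower with the block), and 1 higher and 1 lower with knockdown, where the sum was 40.8 to 62.8 CPM. Endothelial markers summed to at most 12.7 CPM in any library, and 2 of 3 tested were lower with IWR-1, 0 with XAV939 (1 with the block) and 0 with knockdown. Osteoblast markers had 3 of 5 higher with IWR-1, 2 of 5 with XAV939 and 0 of 6 with knockdown (3 with the block). In the drug set *Pi16* did not pass the filter on low counts through DMSO, nor *Csf1r* through IWR-1. There *Tek* passed only through DMSO and *Adgre1* through no group. In the siRNA set *Tek* passed only through siCtrl and *Dpt* through no group. The place of these genes in the marker counts is no support. The part of the marker lists in the results on the 10 genes was not tested. In bulk RNA, fewer cells of a type and less RNA per cell cannot be told apart.

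Whether the inhibitor and knockdown effects differ was tested as an interaction over the 15 libraries for the 8 members that passed the filter in both sets. The IWR-1 effect was more negative than the knockdown effect for 5 members and more positive for 0 (13.9% and 10.5% of all 14271 genes tested were called in these directions). They are *Ptgs2* (difference -2.45 ± 0.47, adjusted p = 0.00160), *Ptges* (-1.43 ± 0.28, 0.00197), *Ptger4* (-1.58 ± 0.36, 0.00469), *Ptgis* (-1.49 ± 0.35, 0.00633) and *Ptgs1* (-0.99 ± 0.33, 0.0411), on the log2 scale. The *Ptgs1* call was lost without any 1 of 7 libraries, with adjusted p between 0.0583 and 0.0972. Between XAV939 and knockdown 0 of 8 members were called by edgeR, where 13.5% of all genes were, 5.40% more positive and 8.07% more negative. The differences were -0.72 ± 0.46 for *Ptgs2*, -0.97 ± 0.35 for *Ptgis*, +0.73 ± 0.31 for *Ptges2* and +0.01 ± 0.28 for *Ptges*, the last with a 95% interval from -0.58 to 0.61. At an unadjusted p under 0.05 there were 2 (*Ptgis* and *Ptges2*), and DESeq2 called 1 (*Ptgis*). With the replicate block 3 were called, *Ptgs2* (-0.77, adjusted p = 0.00844), *Ptgis* (-0.96, 0.00175) and *Ptges2* (+0.72, 0.0154), against 28.2% of all genes. Without the block, 1 was called when DMSO replicate 2 (*Ptges2*), siCtrl replicate 1 or siTnks/2 replicate 2 (*Ptgis*) was left out. For IWR-1 the block added *Ptges2* (-0.55, adjusted p = 0.0426) and *Ptger2* (-1.22, adjusted p = 0.0349).

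Per length, the order of the 10 genes differed between the control states. In DMSO *Nos2* led at 321 ± 44.8 RPKM (CPM per kilobase of exon, SD, n = 3). *Ptges* (82.8 ± 5.4), *Ptges3* (72.1 ± 6.9) and *Ptgs2* (51.9 ± 20.1) followed with overlapping neighbours, then *Ptges2* (11.1 ± 3.5), *Ptgis* (7.91 ± 0.75) and *Ptgs1* (6.21 ± 1.21), also overlapping. *Ptger4* (0.788 ± 0.114), *Ptger2* (0.210 ± 0.039) and *Ptgds* (0.0856 ± 0.0084) closed the order without overlap. In siCtrl *Ptges3* led at 48.4 ± 2.5 RPKM, ahead of *Ptgs2* (16.5 ± 5.6). *Ptgis* (8.14 ± 2.23), *Ptgs1* (5.83 ± 1.20) and *Ptges* (5.30 ± 0.35) came next with overlapping neighbours, then *Ptges2* (3.62 ± 0.13). *Ptger4* (0.243 ± 0.065), *Ptgds* (0.134 ± 0.109) and *Ptger2* (0.0788 ± 0.0133) overlapped in turn, and *Nos2* was last. With XAV939 *Nos2* was still first at 102 ± 13.6 RPKM, and with IWR-1 it was at 14.8 ± 3.3 RPKM, behind *Ptges3* (81.1 ± 6.6) and overlapping *Ptges* (21.0 ± 6.3).

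**Figure D4:**
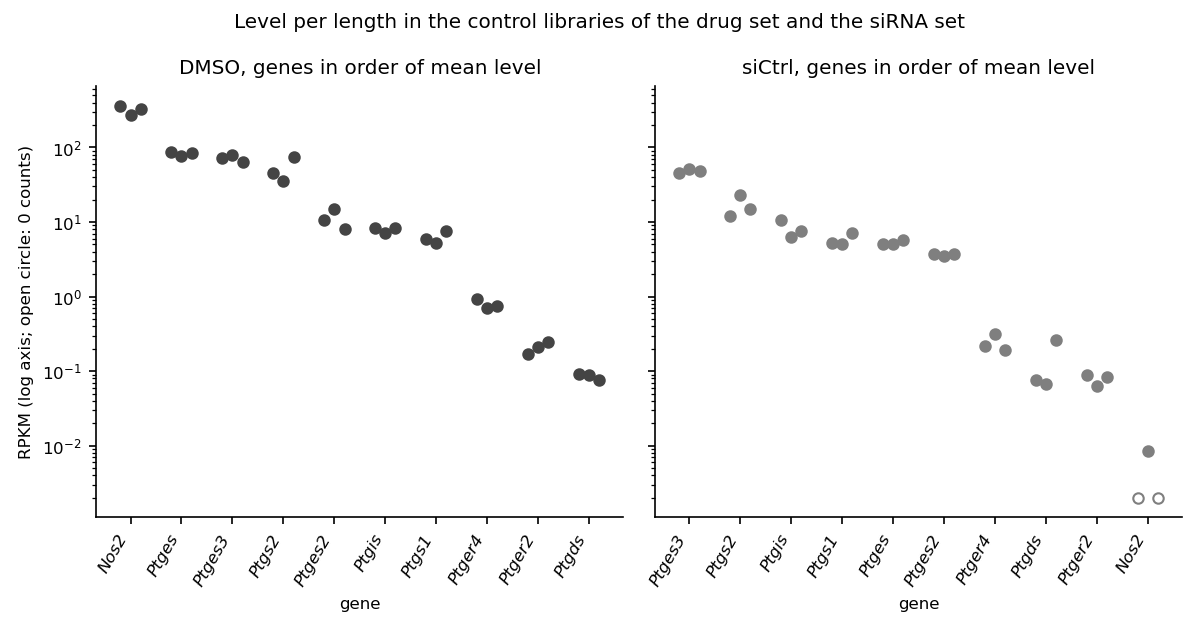
Level per length of the 10 genes in RPKM (vertical log axis) in the 3 DMSO libraries (left) and the 3 siCtrl libraries (right), with genes in order of mean level and open circles for 0 counts. *Nos2* is first in DMSO at 321 RPKM and last in siCtrl, and *Ptges* is at 82.8 RPKM in DMSO and 5.30 RPKM in siCtrl.

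In the direct contrast of the control states, 7 of the 10 members, *Nos2* included, were higher in DMSO than in siCtrl and 0 lower (23.0% of all 14271 genes were called higher and 25.0% lower), and the libraries of 7 did not overlap in that direction (27.6% of all genes). *Nos2* passed the filter only through the drug set, where it is high, so its place in the count is no support. Beside *Nos2*, these were *Ptges* (+3.94 ± 0.22 on the log2 scale, adjusted p = 2.94e-09), *Ptger4* (+1.65 ± 0.24, 4.30e-05), *Ptgs2* (+1.63 ± 0.33, 0.000882), *Ptges2* (+1.59 ± 0.23, 3.98e-05), *Ptger2* (+1.27 ± 0.38, 0.00797) and *Ptges3* (+0.56 ± 0.10, 0.000466). The 3 not called were *Ptgs1* (+0.07 ± 0.23), *Ptgis* (-0.06 ± 0.25) and *Ptgds* (-0.52 ± 0.62). All 10 chondrocyte markers were lower and 7 of 10 fibroblast markers higher in DMSO in the same contrast, with fibroblast sums of 3372 to 5702 CPM in siCtrl. The fibroblast markers *Dpt* and *Pi16* did not pass the filter through siCtrl, so their place in that count is no support. Treatment and set change together here and the siRNA time is not given, so the contrast only describes the control states.

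Other genes of nitric oxide synthesis and response were then examined, 18 of 21 listed being testable under treatment. Of these, 5 were higher and 3 lower with knockdown, 1 higher and 2 lower with XAV939 (2 and 6 with the replicate block), and 6 higher and 6 lower with IWR-1. List medians were +0.19, +0.00 and -0.08. Over all genes tested, 10.4% were called higher and 7.61% lower with knockdown, 7.57% and 9.85% with XAV939, and 16.2% and 20.2% with IWR-1. With the replicate block these shares were, in the same order, 18.1% and 16.5%, 16.0% and 17.4%, and 22.2% and 25.3%. They stand beside the counts of this list and of the lists below. *Ddah1*, which breaks down methylarginines that inhibit nitric oxide synthases, fell under all 3 treatments, by 1.32 ± 0.14 with knockdown (adjusted p = 0.00384), 1.89 ± 0.11 with XAV939 (adjusted p = 1.33e-05) and 2.19 ± 0.11 with IWR-1 (adjusted p = 1.21e-06). *Ddah1* was at 91.0 to 112 CPM in DMSO and at 27.2 to 28.2 CPM with XAV939. *Pde5a*, the cyclic GMP phosphodiesterase, fell by 1.30 ± 0.20 with XAV939 and by 2.31 ± 0.21 with IWR-1, and *Arg2*, an arginase, fell by 2.29 ± 0.18 with IWR-1 from 16.2 to 18.9 CPM in DMSO. *Nos1*, the neuronal-type synthase, was at 4.91, 3.77 and 5.69 CPM in siCtrl and 11.0, 15.6 and 13.8 CPM in siTnks/2 (log2 change +1.48 ± 0.19, adjusted p = 0.00662). With DMSO *Nos1* was at 0.0305, 0 and 0.220 CPM, and with IWR-1 at 0.669, 0.770 and 1.07 CPM. It passed the filter of the drug set only through IWR-1, so its place among the 6 higher genes is no support. *Slc7a1*, an arginine transporter, and *Prkg2*, a cyclic GMP-dependent kinase, rose with knockdown (+0.43 ± 0.06 and +0.67 ± 0.15) and with IWR-1 (+1.30 ± 0.15 and +1.45 ± 0.22). *Ddah2* (-0.96 ± 0.20) and *Asl* (-0.26 ± 0.07) fell with knockdown, and *Pts*, of tetrahydrobiopterin synthesis, rose with XAV939 (+0.50 ± 0.15).

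Upstream of the cyclooxygenases, 11 of 16 genes of arachidonic acid release were tested. With knockdown 2 were higher and 1 lower (4 and 1 with the block), with XAV939 1 and 1 (2 and 3 with the block), and with IWR-1 2 higher and 6 lower. *Pla2g4a*, the cytosolic phospholipase A2, fell by 0.76 ± 0.15 with IWR-1 (adjusted p = 0.00268), from 57.6 to 67.4 CPM down to 31.6 to 40.1 CPM. *Acsl4* and *Mgll* also fell with IWR-1 (-0.91 ± 0.22 and -0.90 ± 0.13), while the secreted phospholipases *Pla2g5* (+1.76 ± 0.18) and *Pla2g12a* (+0.72 ± 0.25) rose. *Pla2g5* rose with XAV939 too (+1.20 ± 0.19, adjusted p = 0.00151), and *Pla2g15* fell (-0.58 ± 0.09). With knockdown *Pla2g12a* (+0.73 ± 0.11) and *Mgll* (+0.59 ± 0.12) rose and *Anxa1* fell (-0.82 ± 0.15).

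Of 4 tested genes among 7 other prostanoid synthases, knockdown lowered 1, XAV939 called 0 (1 higher and 1 lower with the block, 2 at an unadjusted p under 0.05 by edgeR) and IWR-1 raised 1 and lowered 1. *Akr1b8* fell with knockdown (-0.78 ± 0.17) and IWR-1 (-1.27 ± 0.14), and *Prxl2b* rose with IWR-1 (+0.96 ± 0.23). Of 5 tested genes of prostaglandin transport and breakdown among 6 listed, 1 was higher and 1 lower with knockdown (2 and 2 with the block), 1 lower with XAV939 (2 with the block) and 2 lower with IWR-1 (1 higher and 3 lower with the block). *Slco2a1*, the prostaglandin uptake carrier, fell with XAV939 (-0.70 ± 0.14) and IWR-1 (-0.85 ± 0.14). *Ptgr1*, a prostaglandin reductase, fell with knockdown (-0.69 ± 0.19) and IWR-1 (-1.57 ± 0.13), and *Abcc4*, an exporter, rose with knockdown (+0.79 ± 0.15). Among the other prostanoid receptors 3 of 7 were tested, and *Ptgfr*, the receptor for prostaglandin F2 alpha, fell with IWR-1 (-1.18 ± 0.23, adjusted p = 0.00224), while 0 were called with knockdown or XAV939 by edgeR (1 and 2 with the block). At an unadjusted p under 0.05 there was 1 in each, *Ptgfr* and *Ptger1*. In the siRNA set *Ptgfr* passed the filter only through siTnks/2, so its place with knockdown, with or without the block, is no support.

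In the leukotriene and lipoxygenase arm, 6 of 9 genes were tested. With IWR-1 *Alox12* fell (-1.29 ± 0.25), and *Alox5* and *Ltb4r1* were also past the limit on the lower side (fitted log2 differences of -2.49 ± 0.59 and -1.74 ± 0.51). Neither of the latter passed the filter through IWR-1, so these are descriptions. *Alox5*, the lipoxygenase that starts leukotriene synthesis, was at no more than 0.660 CPM in the drug set, and *Ltb4r1* at no more than 0.679 CPM. XAV939 called 0 (1 lower with the block, 1 at an unadjusted p under 0.05), and knockdown raised *Alox12* (+2.04 ± 0.45) and *Ephx2* (+0.72 ± 0.14), with *Cysltr1*, which passed the filter only through siCtrl, at -1.79 ± 0.41 on the lower side, where the block called 3 higher and 2 lower.

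The list of inducers and regulators of *Nos2* and *Ptgs2* held 21 genes, of which 19 were tested in the drug set and 18 in the siRNA set. With IWR-1 10 were lower and 1 higher (list median -0.47), with XAV939 3 lower and 1 higher (8 and 2 with the block), and with knockdown 2 lower and 1 higher (5 and 1 with the block). *Nfkbiz*, an NF-kB cofactor, was at 320, 279 and 334 CPM in DMSO libraries, 196, 212 and 235 CPM in XAV939 libraries and 87.6, 91.4 and 110 CPM in IWR-1 libraries. It fell by 0.54 ± 0.12 (adjusted p = 0.0129) and 1.69 ± 0.13 (adjusted p = 5.84e-06). *Tnf*, counted among the 10, had 0.440 to 0.640 CPM in DMSO and a fitted log2 difference of -2.08 ± 0.45 with IWR-1, but did not pass the filter through IWR-1, so this is a description. *Il1b* was at no more than 0.0582 CPM in any library. *Il1rn*, the interleukin-1 receptor antagonist, fell with IWR-1 (-1.45 ± 0.38), and *Zfp36*, which destabilises inflammatory mRNAs, and *Rela* fell with XAV939 (-0.76 ± 0.14 and -0.39 ± 0.10). *Il1r1*, the interleukin-1 receptor, fell with knockdown (-0.63 ± 0.08, adjusted p = 0.00632), as did *Nfkb2* (-0.40 ± 0.08), and *Hif1a* rose (+0.38 ± 0.08). In DMSO against siCtrl 15 of 19 of these genes were higher and 1 lower, against 23.0% and 25.0% of all genes. In that contrast *Tnf* did not pass the filter through siCtrl, so its place in the count is no support.

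Next came a list of 10 genes linked to cyclic AMP, the messenger that EP2 and EP4 raise. Of these, 9 were tested in the drug set and 8 in the siRNA set. The part of EP2 and EP4 in their levels was not tested, and these data hold no measure of cyclic AMP. With XAV939 6 of 9 were lower and with IWR-1 6 of 9, with list medians of -0.84 and -1.41, and 0 were higher. *Nr4a1*, an orphan nuclear receptor, was at 11.3, 10.4 and 15.2 CPM in DMSO libraries, 4.28, 3.11 and 5.06 CPM in XAV939 libraries and 1.77, 1.80 and 2.93 CPM in IWR-1 libraries. It fell by 1.55 ± 0.24 (adjusted p = 0.00179) and 2.47 ± 0.26 (adjusted p = 3.45e-05). *Sik1*, a kinase induced by cyclic AMP, fell by 1.24 ± 0.16 and 1.78 ± 0.17, the phosphodiesterase gene *Pde4b* by 1.64 ± 0.14 with IWR-1 and *Pde4d* by 0.84 ± 0.18 with XAV939. With knockdown 0 of 8 were called by edgeR (list median -0.01), 0 with the block and 1 at an unadjusted p under 0.05.

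**Figure D5:**
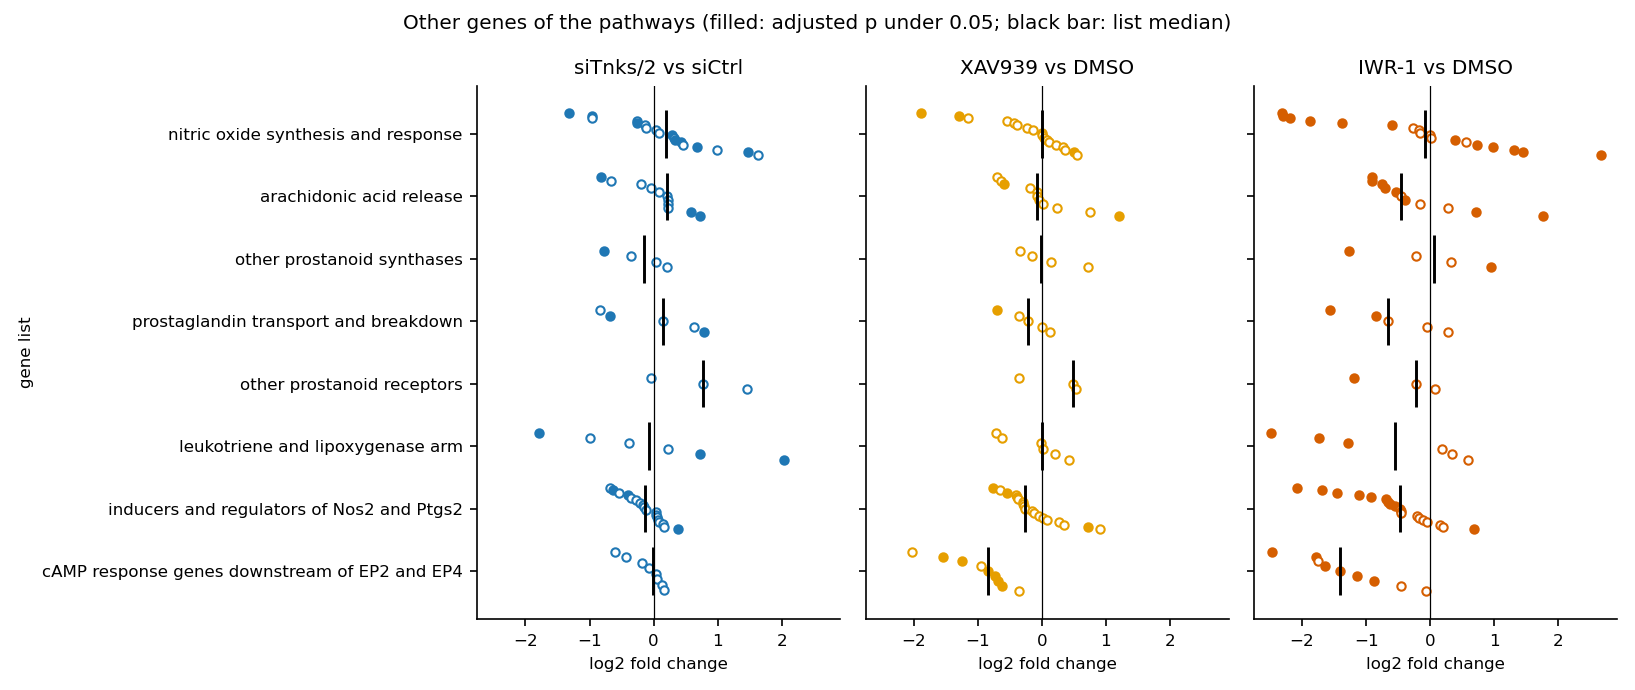
Log2 fold change (horizontal axis, the same range in the 3 panels) of the tested genes of 8 pathway lists with knockdown, XAV939 and IWR-1, with 1 point per gene, filled where the adjusted p is under 0.05, and a black bar for the list median. The cyclic AMP response list lies left of 0 with XAV939 (median -0.84) and IWR-1 (median -1.41) and around 0 with knockdown (median -0.01).

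The genes whose pattern was most like those of *Nos2*, *Ptgs2* and *Ptges* were taken over the 15 libraries after the mean of each set was removed, by Pearson's r of log2 CPM. For *Ptgs2* they were *Lif* (r = 0.987), *Procr* (0.986) and *Elk3* (0.979). *Lif* averaged 73.6 CPM in DMSO, 23.7 with XAV939, 5.70 with IWR-1, 8.39 in siCtrl and 3.98 in siTnks/2, the same order within each set as *Ptgs2*. For *Ptges* they were *Il4ra* (r = 0.982), *Ptprj* (0.980) and *Acpp* (0.975). For *Nos2* they were *Vasn* (r = 0.969), *Mgat3* (0.962) and *Tnfsf11* (0.962). *Nos2* has almost no reads in the siRNA set, so over the 9 drug libraries alone, a choice made after seeing the data, the genes were *Axl* (0.998), *Mgat3* (0.994) and *Adssl1* (0.994), of which 1 is shared. These libraries share treatments and depth, and the correlations are given as a description.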

How the data were processed

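Poly(A) RNA of 15 libraries was sequenced from a strand-marking kit, 9 in the drug set and 6 in the siRNA set, with 3 libraries in each of the 5 groups. The authors deposited raw read counts per gene, made with Trimmomatic 0.32, TopHat2 2.0.13 and HTSeq 0.6.1p1 on mm10 per the submitters' processing notes. Which gene annotation and which strand option the counting used is not given in the sources used here. Of 24134 Entrez identifiers 24051 matched a symbol. Groups were taken from the sample labels, and every count column belonged to a sample.

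Each table was fitted by edgeR 4.0.16 (limma 3.58.1, R 4.3.3) with filterByExpr, TMM scaling, a prior count of 2 and the quasi-likelihood test, with Benjamini-Hochberg adjustment over all 13672 (siRNA) or 13873 (drug) genes tested, and calls were made at an adjusted p under 0.05. DMSO against siCtrl and the differences between effects were fitted over all libraries (14271 genes). For members and list genes, the groups whose 3 libraries reached the filter's limit were recorded, and a gene that passed only through the group where it is high is given as a description. Counts over the lists include such genes, whose place in them is no support. CPM used TMM library sizes within each set, and RPKM divided them by summed exon length. Shares were compared by exact permutation. The fit was also run on simulated counts with the same fixed spread for every gene and no effect of replicate number. That run checks the code and not how the model suits these libraries.

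Same-numbered libraries deviated together, with correlations of 0.143 to 0.553 in the drug set (9 pairs) and 0.424 to 0.519 in the siRNA set (3 pairs), against -0.489 to 0.318 and -0.409 to 0.0972 for other pairs. Count columns carry the replicate numbers on which this pairing rests, and a fit with that number as a block was an alternative. Other alternatives were RLE or upper-quartile scaling, 2 other filters, DESeq2 1.42.0, only the groups compared, and leaving out each library. A length from the longest coding transcript and the likeness to *Nos2* over the drug libraries were added after seeing the data. The members and lists were chosen with earlier results of these data known. The genes named are the members, *Tnks* and *Tnks2*, up to 3 genes higher and 3 lower with the largest called log2 change in each pathway list and treatment comparison, and the 3 genes most like *Nos2*, *Ptgs2* and *Ptges*. Of these, 1 gene is not reported here. *Il1b*, *Ptger1*, *C1qa*, *C1qb*, *Csf1r*, *Adgre1*, *Dpt*, *Pi16* and *Tek* were named after their values were seen.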

Additional observations from a re-analysis of the deposited data

Results flagged for a closer look

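The effect of IWR-1 against DMSO differed from the effect of knockdown against siCtrl in the test of the difference itself for *Ptgs2* (-2.45 on the log2 scale), *Ptger4* (-1.58), *Ptgis* (-1.49), *Ptges* (-1.43) and *Ptgs1* (-0.99), with adjusted p = 0.00160, 0.00469, 0.00633, 0.00197 and 0.0411 by edgeR. For *Ptgis* the knockdown and control libraries overlapped, while all 3 IWR-1 libraries lay below DMSO. Inhibitor and siRNA differ in agent and set, which cannot be told apart, and the time of the siRNA set is not given.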

How the results depend on the processing

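Counts and shares that answer a comparison were recomputed under the alternatives. Of these values, 281 kept the reported result (counts within 1.5 times, share differences of the same sign) and 29 moved. With the replicate block, genes called rose to 4727 with knockdown, 4630 with XAV939, 4258 between the inhibitors and 4018 for the difference of the XAV939 and knockdown effects, and members called to 4, 7, 8 and 3. The block changed no member's call other than those given above. The 10-count filter left 1 member called with knockdown, and DESeq2 called 4 there and 1 for the XAV939 effect difference. In these comparisons the number of all genes called stayed within 1.5 times the reported one. With knockdown DESeq2 added *Ptgs1* (adjusted p = 0.0207) and *Ptges* (0.0228), and *Ptgds* is among its 4. The fit of only the groups compared called 1569 genes with XAV939. DESeq2 also called *Ptges* (adjusted p = 0.0366) and *Ptges2* (0.0436) with XAV939, *Ptges2* with IWR-1 (0.0391) and *Ptgis* between the inhibitors (0.0405). The edgeR fit of only the groups compared called *Ptges* with XAV939 (adjusted p = 0.0383) and *Ptges2* with IWR-1 (0.0430). With upper-quartile scaling edgeR called *Ptgis* between the inhibitors (adjusted p = 0.0496). The causes were not tested.

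Leaving out 1 library gave 608 to 2868 genes with knockdown, 1322 to 2484 with XAV939, 1343 to 3044 between the inhibitors and 1241 to 2159 for the XAV939 effect difference, and 1 to 2, 4 to 8 and 0 to 1 members for knockdown, between the inhibitors and the effect difference. The sign of some log2 differences, none of them called, also turned. With knockdown the ranges were -0.19 to 0.36 for *Ptger2*, -0.094 to 0.0076 for *Ptges3* and -0.13 to 0.35 for *Ptgis*. With XAV939 they were -0.11 to 0.52 for *Ptger2* and -0.053 to 0.13 for *Ptges3*. For DMSO against siCtrl they were -0.76 to 0.16 for *Ptgds*, -0.22 to 0.17 for *Ptgis* and -0.10 to 0.25 for *Ptgs1*. For the XAV939 effect difference they were -0.28 to 0.51 for *Ptger2*, -0.11 to 0.25 for *Ptges* and -0.34 to 0.10 for *Ptgs1*. *Ptger2*, *Ptgds* and, in the siRNA set, *Nos2* rest on few counts, and counting error limits their values.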
